A study of Homo sapiens with 6 samples.

Results

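The adaptor protein complex AP-5 and its partners spatacsin and spastizin were followed here as 6 genes: AP5Z1, AP5B1, AP5M1 and AP5S1, which encode the subunits of AP-5, SPG11, which encodes spatacsin, and ZFYVE26, which encodes spastizin. These were 6 of the 57773 genes in the count table, found by gene identifier, and all 6 passed the filter on low counts that left 22010 genes for testing. The set was gathered around AP5Z1, which was chosen by its level in the sgZNF507 libraries, since it is among the genes the study listed as changed after ZNF507 disruption. The sgZNF507 against EV values of the 6 genes are therefore given as a description, and nothing is read from their calls. The same holds for AP5Z1 in sgZNF507 against sgZNF146.

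The study asked which genes respond when ZNF146 or ZNF507, zinc finger proteins that bind LINE-1 sequences, are disrupted. HEK293 cells, a human embryonic kidney line, were transiently transfected with PX459 plasmids, which carry Cas9, a guide and a puromycin resistance gene. One group received 4 guides against ZNF146 (sgZNF146), another 4 guides against ZNF507 (sgZNF507), and the control received the empty plasmid (EV), so that every group, EV included, met Cas9 and then puromycin for 36 hours before outgrowth to 2 weeks. The EV plasmid held no guide against either gene, and the cells were harvested as populations and not as clones. Disruption was carried out in biological duplicate, giving 6 libraries of ribosome-depleted, paired-end RNA-seq. P-values measure the spread between these duplicate disruptions.

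The libraries held between 22724439 and 28524025 counts. ZNF507 stood at 72.0 and 75.5 CPM (counts scaled by TMM to a common library size and read per 1000000) in EV and at 47.2 and 48.7 CPM in sgZNF507 (log2 fold change -0.62, edgeR adjusted p = 0.00195), whereas ZNF146 passed the threshold in neither targeted group, at a log2 fold change of -0.13 in sgZNF146 and of -0.21 in sgZNF507 against EV (adjusted p = 1.00 for both). Its mean was 110.2 CPM in EV, 100.9 CPM in sgZNF146 and 94.9 CPM in sgZNF507, lowest where it was not the target. RNA levels need not fall after small insertions and deletions, and for ZNF146 they check the labels only weakly. The study's own evidence of disruption was of other kinds. It reported both proteins as nearly undetectable by western blot in the targeted cells. It also reported frequent insertions and deletions at the guide sites in the RNA-seq reads, not seen in control cells. The HEK293 markers VIM (1012 to 1147 CPM), NEFM and PAX2 were detected in every library. NEFL, also listed as a HEK293 marker, had no single match between symbol and gene identifier and was not analysed. The blood, endothelial and hepatocyte markers PTPRC, CDH5 and ALB had 0 to 6 counts each. COL1A1, a fibroblast marker listed as one that should be near 0, was present at 58.9 to 73.0 CPM in all 6 libraries.

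Adaptor protein complexes select cargo and help shape coats on membranes. AP-5 is the member of the family found on late endosomes and lysosomes, where it is built from the large subunits zeta (AP5Z1) and beta (AP5B1), the medium subunit mu (AP5M1) and the small subunit sigma (AP5S1). It works in a stable assembly with spatacsin and with spastizin, whose FYVE domain binds phosphatidylinositol 3-phosphate. The assembly is known for returning sorting receptors from late endosomes to the Golgi and for the re-forming of lysosomes after autophagy, and loss of AP5Z1, SPG11 or ZFYVE26 causes hereditary spastic paraplegia.

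The promoter windows are shown first because they hold a feature, described further on, that AP5Z1 shares with many of the genes whose level changed in the sgZNF507 libraries. RefSeq windows on GRCh38.p14, from 250 bases before to 50 bases after the annotated start, were matched for 5 of the 6 members, all but SPG11. The window of AP5Z1 (chr7:4775373-4775672, plus strand) and that of ZFYVE26 (chr14:67816541-67816840, minus strand) are printed 5′ to 3′ in the direction of the gene, with searched motifs in capitals on whichever strand they lie: the E-box CACGTG and the 8-base palindrome TCACGTGA that contains it, the GC box GGGCGG, the CCAAT box, and the ETS core CCGGAAG.
AP5Z1: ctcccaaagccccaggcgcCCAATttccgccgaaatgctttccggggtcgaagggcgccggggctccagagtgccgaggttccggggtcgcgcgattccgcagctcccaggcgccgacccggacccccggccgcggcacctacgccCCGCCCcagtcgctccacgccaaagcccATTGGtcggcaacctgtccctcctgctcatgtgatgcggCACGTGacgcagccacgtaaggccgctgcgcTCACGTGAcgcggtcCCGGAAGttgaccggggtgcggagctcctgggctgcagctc
ZFYVE26: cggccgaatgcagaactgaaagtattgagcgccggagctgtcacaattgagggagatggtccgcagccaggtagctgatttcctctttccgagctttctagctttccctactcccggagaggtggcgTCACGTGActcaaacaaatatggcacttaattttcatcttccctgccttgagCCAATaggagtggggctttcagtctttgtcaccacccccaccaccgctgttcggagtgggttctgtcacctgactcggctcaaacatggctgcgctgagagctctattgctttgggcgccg

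TCACGTGA is the centre of the element bound by the lysosomal transcription factors of the MiT/TFE family, and the E-box inside it is also read by other basic helix-loop-helix factors. Counting the first base of the transcript as 1 and the base before it as -1, AP5Z1 held the palindrome from -6, a further CACGTG from -37, CCGGAAG from 10, GGGCGG from -104 and CCAAT from -231 and -76. ZFYVE26 held the palindrome from -123 and CCAAT from -71, with no GGGCGG. The windows of AP5B1, AP5M1 and AP5S1 held no CACGTG, and they held GGGCGG at 4, 2 and 1 places. Over 35116 promoter windows of the same length, 7.3% held CACGTG, 1.0% TCACGTGA, 45.0% GGGCGG, 34.6% CCAAT and 10.3% CCGGAAG, both strands searched. AAGATGGC, a YY1 motif held by 2.9% of windows, was in none of the 5. A match is a run of letters in a window, not a measured binding site.

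AP5Z1, the large zeta subunit, was the member whose level stood out. It is encoded on chromosome 7 (GRCh37, 4815246 to 4834028, plus strand) and its longest coding sequence has 807 codons. AP5Z1 stood at 33.0 and 36.5 CPM in the EV libraries, at 33.2 and 38.0 CPM in sgZNF146 and at 47.7 and 51.9 CPM in sgZNF507. Both sgZNF507 libraries thus lay above all 4 others, and the EV and sgZNF146 libraries overlapped. The group means were 34.7 ± 2.46 CPM in EV, 35.6 ± 3.41 CPM in sgZNF146 and 49.8 ± 2.995 CPM in sgZNF507 (SD, n = 2 each). The fitted level in sgZNF507 was 1.43 times that in EV, with a 95% interval from 1.25 to 1.65 (log2 fold change 0.52, SE 0.09). Taken within the replicate numbers, the ratio of sgZNF507 to EV was 1.44 for replicate 1 and 1.42 for replicate 2. These values describe the contrast by which AP5Z1 was chosen.

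**Figure D1:**
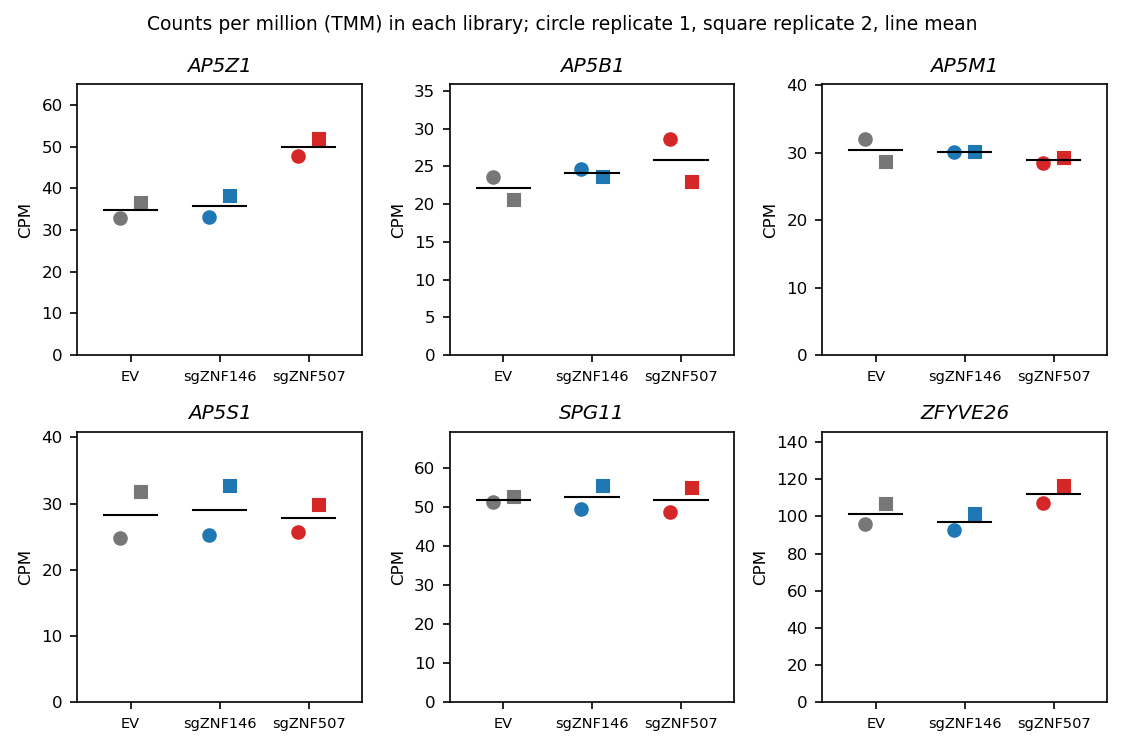
CPM of each member in each library, by group; circles are replicate 1, squares replicate 2 and the line the group mean, and every axis starts at 0. AP5Z1 in the sgZNF507 libraries (47.7 and 51.9 CPM) lies above the other 4 libraries (33.0 to 38.0 CPM), while AP5S1 and SPG11 differ more between replicate numbers than between groups.

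AP5B1, the other large subunit, lies on chromosome 11 (65541369 to 65548447, minus strand). Its libraries held 23.6 and 20.6 CPM in EV, 24.6 and 23.6 CPM in sgZNF146, and 28.7 and 23.0 CPM in sgZNF507. The sgZNF507 duplicates were further apart than in the other groups, and the lower one fell inside the EV range. In sgZNF507 against EV its log2 fold change was 0.22 (SE 0.12), a fold of 1.17 with an interval from 0.979 to 1.39. This value rested on single libraries: it was 0.06 without sgZNF507 replicate 1, 0.39 without sgZNF507 replicate 2, and 0.12 and 0.33 without EV replicate 2 and EV replicate 1. AP5B1 shares 2217 of its 6980 exon bases with the pseudogene AP001266.1 on the same strand. That pseudogene was listed at 0 counts in all 6 libraries, and how reads in the shared exons were assigned is not given in the sources used here.

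AP5M1, the medium subunit that in other adaptors binds sorting signals, lies on chromosome 14 (57735642 to 57765460, plus strand). It stood at 32.1 and 28.6 CPM in EV, at 30.1 CPM in both sgZNF146 libraries, and at 28.5 and 29.2 CPM in sgZNF507. All 6 libraries fell between 28.5 and 32.1 CPM. The log2 fold change in sgZNF507 against EV was -0.07 (SE 0.09), with a fold between 0.831 and 1.09. AP5M1 was close to level across groups in which AP5Z1 was not.

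AP5S1, the small subunit, lies on chromosome 20 (3801171 to 3809485, plus strand). It stood at 24.9 and 31.7 CPM in EV, at 25.3 and 32.7 CPM in sgZNF146, and at 25.7 and 29.8 CPM in sgZNF507. In each group replicate 1 was the lower library, and the groups overlapped throughout. The log2 fold change in sgZNF507 against EV was -0.03, and with an SE of 0.14 and a fold interval from 0.798 to 1.21 it was the least precise of the 6.

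SPG11, the gene of spatacsin, lies on chromosome 15 (44847016 to 44955886, minus strand) and encodes the large scaffold that links AP-5 to spastizin. Its levels were 51.3 and 52.6 CPM in EV, 49.7 and 55.5 CPM in sgZNF146 and 48.9 and 54.9 CPM in sgZNF507. The 3 groups shared 1 range. The fold in sgZNF507 against EV was 1.00, between 0.880 and 1.14. SPG11 shares 187 exon bases with EIF3J on the opposite strand, which stood at 55.2 to 73.4 CPM, and although the library kit kept strand, the strand setting used in counting is not given in the sources used here.

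ZFYVE26, the gene of spastizin, lies on chromosome 14 (68194091 to 68283307, minus strand) and had the highest CPM of the members. It stood at 96.2 and 106.9 CPM in EV, at 92.6 and 101.5 CPM in sgZNF146 and at 107.4 and 116.4 CPM in sgZNF507. Both sgZNF507 libraries lay above the other 4, the lower of them by less than 1 CPM. In sgZNF507 against EV the log2 fold change was 0.14 (SE 0.08), a fold of 1.10 with an interval from 0.983 to 1.24. It was 0.07 without EV replicate 1, 0.22 without EV replicate 2 and 0.09 without sgZNF507 replicate 2. Within replicate numbers the ratio of sgZNF507 to EV was 1.12 and 1.09. ZFYVE26 shares 536 exon bases with RDH12 on the opposite strand, which had 5 to 11 counts a library.

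Set side by side in sgZNF507 against EV, the fitted log2 fold changes of the members ran from -0.07 for AP5M1 to 0.52 for AP5Z1. In the edgeR quasi-likelihood fit, 0 of the 6 members passed an adjusted p of 0.05 (Benjamini-Hochberg), where 0.182% of all tested genes (40 of 22010) did. This is the contrast the set was drawn from, and nothing is read from that count. DESeq2 and the fit with the replicate number as a block each called 1 member, AP5Z1. Nothing is read from these calls either, since the study's DESeq2 list chose AP5Z1. Groups without overlap were found for AP5Z1 and ZFYVE26, 2 of 6 members, both higher in sgZNF507, beside 29.3% of all tested genes. Members were measured with 570 to 3372 counts a library, for which counting error alone gives a coefficient of variation of 4.19% to 1.72%. In bulk RNA, fewer cells with a transcript and less of it in each cell cannot be told apart.

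**Figure D2:**
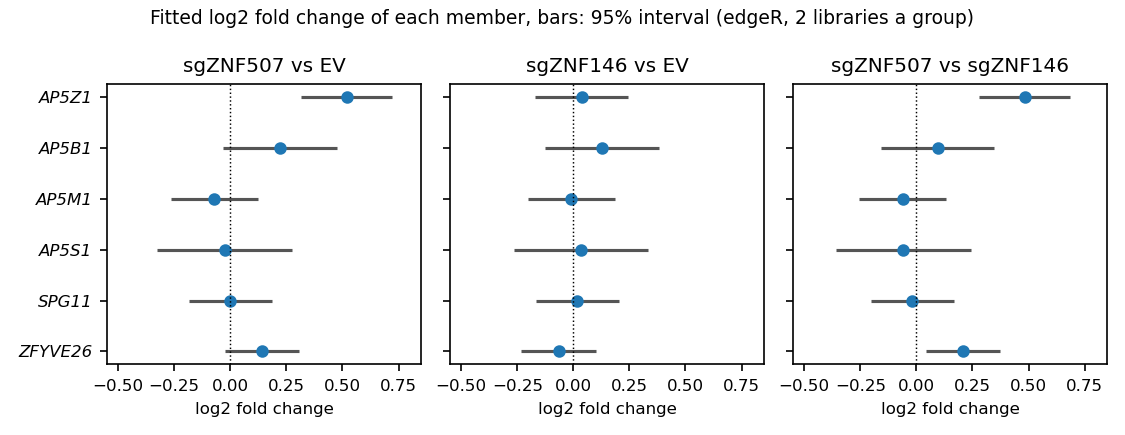
Fitted log2 fold change (horizontal axis) of the 6 members in the 3 comparisons, with bars for the 95% interval. The AP5Z1 interval lies above 0 in both comparisons that hold the sgZNF507 libraries and spans 0 in sgZNF146 against EV, where its log2 fold change was 0.04.

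The RNA levels of the members were next compared after disruption of another zinc finger gene. In sgZNF146 against EV, which did not choose the members, AP5Z1 differed by a log2 fold change of 0.04 (SE 0.09) and its fold lay between 0.889 and 1.18. AP5B1 differed by 0.13 (SE 0.12), AP5S1 by 0.03, SPG11 by 0.02, AP5M1 by -0.01 and ZFYVE26 by -0.07. None of the 6 members passed the test in edgeR (adjusted p = 1.00 for each, with 0 members at an unadjusted p under 0.05) or in DESeq2. Over all genes 0% were called by edgeR (535 genes had an unadjusted p under 0.05, and DESeq2 on 6 libraries called 0). AP5B1 was the only member whose groups did not overlap, the lower sgZNF146 library lying just above the higher EV one, and 1 of 6 members compares with 28.6% of all genes. Change is bounded and not excluded: the fold intervals of AP5B1 (0.916 to 1.30) and AP5S1 (0.831 to 1.26) reached farthest from 1.

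The comparison of the targeted groups sets sgZNF507 against libraries that also carried cutting guides. AP5Z1 was 1.40 times as high in sgZNF507 as in sgZNF146 (interval 1.21 to 1.61), and the ratio within replicate numbers was 1.43 and 1.36, again as a description. Of the 5 partners, 0 passed the adjusted threshold in edgeR, beside 0.173% of all genes, and DESeq2 called none of them. ZFYVE26 had an unadjusted p of 0.0184 and an adjusted p of 1.00, with a fold of 1.15 (interval 1.03 to 1.29). With the replicate number as a block its adjusted p was 0.0409 at a log2 fold change of 0.21, and AP5Z1 passed as well. The sgZNF507 to sgZNF146 ratios of ZFYVE26 within replicate numbers were 1.16 and 1.15. AP5B1 (0.10), AP5M1 (-0.06), AP5S1 (-0.06) and SPG11 (-0.02) had log2 fold changes within 1 SE of 0. AP5Z1 and ZFYVE26 were higher and AP5M1 lower without overlap, 3 of 6 members beside 32.1% of all genes. The comparison shares its sgZNF507 libraries with the one against EV, so the values of both are not separate evidence.

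Several members differed between replicate numbers in the same direction in every group. AP5Z1, AP5S1, SPG11 and ZFYVE26 were lower in replicate 1 than in replicate 2 in all 3 groups, and AP5B1 was higher in replicate 1 in all 3. Of all 22010 tested genes, 20.3% were lower and 19.3% higher in replicate 1 in all 3 groups. Over the 6 libraries, which share these replicate numbers and their depth, the log2 CPM of AP5S1 and SPG11 had a Pearson r of 0.83, AP5Z1 and ZFYVE26 one of 0.89, and AP5Z1 and AP5M1 one of -0.64. These describe 6 points. By this measure ZFYVE26 lay nearest to AP5Z1 among the members, and AP5B1 (0.33), AP5S1 (0.21) and SPG11 (0.20) lay farther from it.

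Among 14743 other protein-coding genes tested, the 5 whose log2 CPM was most like AP5Z1 over the 6 libraries were BAP1 (r = 0.996), CABIN1 (0.989), GNPTG (0.986), RETREG2 (0.986) and SUMF1 (0.985), and 49 genes reached an r of 0.95. ZFYVE26 ranked 184. The sizes of their differences were unlike. BAP1, a deubiquitinase, went only from 172.5 and 175.5 CPM in EV to 181.6 and 185.1 CPM in sgZNF507. GNPTG, a subunit of the enzyme that makes the mannose 6-phosphate tag, went from 31.6 and 33.2 CPM to 54.8 and 58.9 CPM, and SUMF1, which activates sulfatases, from 8.36 and 8.97 CPM to 15.1 and 15.7 CPM. RETREG2, an endoplasmic reticulum receptor of the reticulophagy family, went from 66.9 and 71.7 CPM to 80.8 and 88.2 CPM. GNPTG and SUMF1 are, like AP5Z1, among the genes the study listed as changed. AP5Z1 was chosen for its level in the sgZNF507 libraries, so likeness to it favours genes that differ there. This overlap with the study's list supports nothing.

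The promoter windows were then taken up again. Windows were matched for 11793 tested protein-coding genes, of which 26 passed the threshold in sgZNF507 against EV, and the motifs were searched with those results known, so the counts are a description. TCACGTGA lay in the window of 12 of the 26 called genes (46.2%) and of 248 of all 11793 (2.1%), and CACGTG, which counts the same matches and more, lay in 21 of the 26 (80.8%) and in 12.2% of all. The CACGTG share was 54.2% (32 of 59) with the replicate block and 60.0% without EV replicate 1. The GC box lay in 80.8% of the called genes and 75.6% of all, the CCAAT box in 34.6% and 43.1%, and the ETS core in 26.9% and 20.4%. Of the 12 called genes with the palindrome 10 were higher and 2 lower, the lower being WDR81 and ZNF507 itself. Most genes with the palindrome stayed near 0: the median log2 fold change of the 248 was -0.02 in sgZNF507 against EV, beside -0.00 for all 11793, and 113 of them lay above 0. AP5Z1 was among the highest of the 248, with 5 genes above it, while ZFYVE26 lay at 0.14. Of the 5 genes most like AP5Z1, GNPTG and RETREG2 were among the 248, and BAP1, CABIN1 and SUMF1 were not. In sgZNF146 against EV, where edgeR called no gene at all, the median of the 248 was -0.00. The palindrome's share among called genes lay between 33.3% and 50.0% under the alternative settings, with as few as 10 called genes holding a window.

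The 24 bases around the palindrome (capitals) are set side by side for the members that hold it and for GNPTG, named above for its likeness, and IGF2R, a cargo of AP-5 taken up below; GNPTG held 2 matches and IGF2R 3, and those nearest the start are shown. The start of the shown match was at -6 in AP5Z1, -123 in ZFYVE26, 4 in GNPTG and -29 in IGF2R.
AP5Z1: cgctgcgcTCACGTGAcgcggtcc
ZFYVE26: aggtggcgTCACGTGActcaaaca
GNPTG: ccgtcactTCACGTGAccgcgcgg
IGF2R: ggcggctgTCACGTGAcgcggttc

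**Figure D3:**
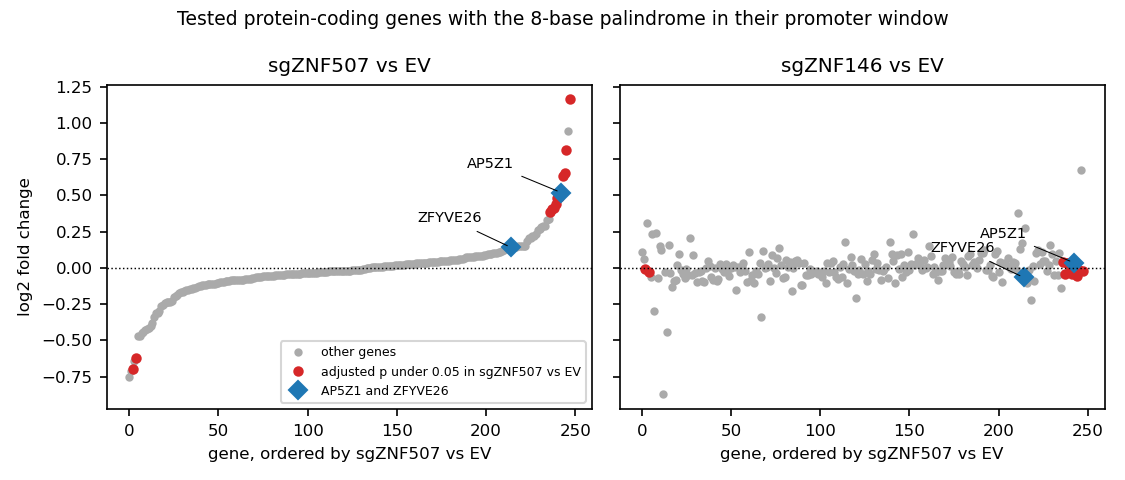
Log2 fold change (vertical axis) of the 248 tested protein-coding genes with the 8-base palindrome in the promoter window, in the same gene order in both panels, with the genes called in sgZNF507 against EV in red and AP5Z1 and ZFYVE26 as diamonds. The order is that of the left panel, where AP5Z1 sits at 0.52 near the right end, and in the right panel, sgZNF146 against EV, it sits at 0.04.

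Cargo receptors of AP-5 came next, from a list of 3 genes. IGF2R, the cation-independent mannose 6-phosphate receptor that carries hydrolases to endosomes, stood at 313.5 and 290.6 CPM in EV, at 304.9 and 312.1 CPM in sgZNF146 and at 413.1 and 389.5 CPM in sgZNF507. It was higher in sgZNF507 than in EV by a log2 fold change of 0.41 (SE 0.06, edgeR adjusted p = 0.0237). Against sgZNF146 the difference was 0.38 (edgeR adjusted p = 0.0404). IGF2R is, like AP5Z1, in the study's list from these same libraries, so both calls are a description and support nothing. SORT1, the sorting receptor sortilin (0.05), and GOLIM4, a Golgi protein that cycles through endosomes (0.04), had no call. The call against EV was lost without EV replicate 1 (adjusted p = 0.118), EV replicate 2 (0.475) or sgZNF507 replicate 1 (0.111), at log2 fold changes of 0.47, 0.35 and 0.37, and in edgeR on the 4 compared libraries (0.0754). Against sgZNF146 it was lost without any 1 library other than sgZNF507 replicate 2, with adjusted p from 0.0618 to 0.671. In sgZNF146 against EV, IGF2R differed by 0.03.

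The machinery that brings AP-5 to membranes was taken as 13 genes of the class III phosphatidylinositol 3-kinase complexes, the Rag GTPases and Ragulator. This list had 0 calls in each comparison, beside at most 0.182% of all tested genes. At that share no absence of change is read from 0 calls, here or in the lists below. The median log2 fold change of the list in sgZNF507 against EV was 0.03, beside -0.00 for all genes tested. The members of the list farthest from 0 were RRAGB at -0.43 (SE 0.16) and RRAGC at -0.25 (SE 0.10), Rag GTPases that recruit mTORC1 to lysosomes. RRAGB stood at 6.79 and 7.96 CPM in EV and at 6.12 and 4.90 CPM in sgZNF507, and neither gene passed the adjusted threshold (adjusted p = 1.00 for both).

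The 9 genes listed for lysosome reformation cover clathrin, dynamin, phosphoinositide kinases, kinesin and RAB7A. They had 0 calls in each comparison, beside at most 0.182% of all tested genes. Their log2 fold changes in sgZNF507 against EV ran from -0.09 for the lipid kinase PIP5K1B to 0.12 for the lipid kinase PI4K2A. The 39 further hereditary spastic paraplegia genes tested had 0 calls in each comparison, beside at most 0.182% of all tested genes. Their median in sgZNF507 against EV was 0.01. The adhesion molecule L1CAM (-0.54, SE 0.25) was read at only 1.26 to 2.13 CPM, and the ganglioside enzyme B4GALNT1 (0.28, SE 0.17) overlapped between groups, from 19.5 to 23.0 CPM in EV and 21.0 to 30.9 CPM in sgZNF507. WASHC5, the strumpellin subunit of the endosomal WASH complex, stood at 55.5 and 57.5 CPM in EV, at 58.4 and 61.3 CPM in sgZNF146 and at 66.9 and 66.3 CPM in sgZNF507. Both sgZNF507 libraries lay above the other 4, as they also did for C19orf12 and ALDH18A1. For DDHD1, SPAST, CPT1C and L1CAM both lay below the other 4. Of all tested genes, 29.3% had no overlap between sgZNF507 and EV. The log2 fold change of WASHC5 against EV was 0.24 (SE 0.07, edgeR adjusted p = 1.00, and 0.0514 with the replicate block). AP5Z1, itself a paraplegia gene but chosen by this contrast, was higher by more than any of these 39.

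**Figure D4:**
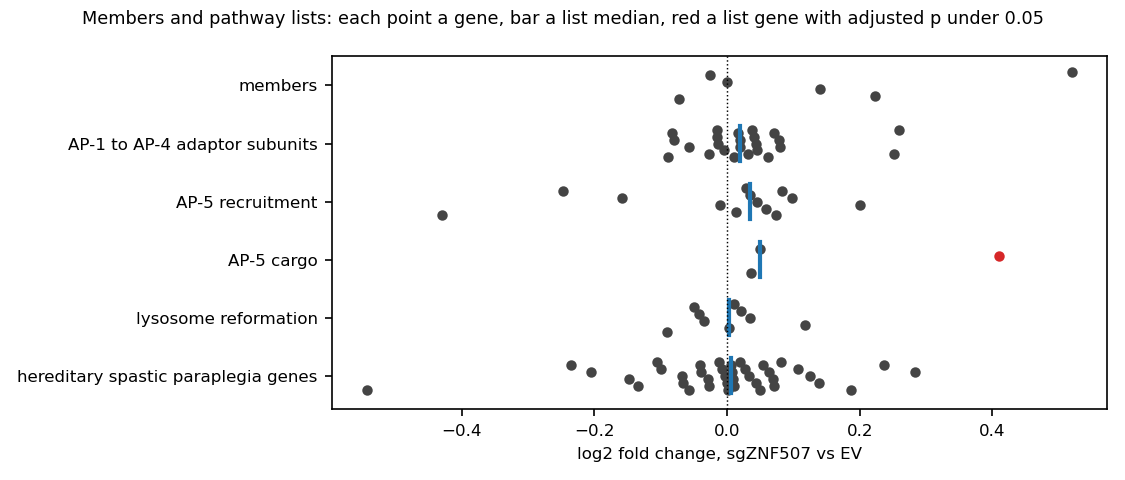
Log2 fold change in sgZNF507 against EV for the members and the 5 pathway lists, each point a gene, the blue bar a list's median and red a list gene past the adjusted threshold. IGF2R at 0.41 is the red point, and AP5Z1 at 0.52 is the rightmost member.

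The related complexes AP-1 to AP-4 served as the comparison for AP-5. All 24 of their subunit genes were tested and 0 were called in each comparison, beside at most 0.182% of all tested genes. Their log2 fold changes in sgZNF507 against EV ran from -0.09 for AP3M1 to 0.26 for AP4M1, with a median of 0.02. AP4M1, the medium subunit of AP-4, stood at 14.0 and 12.1 CPM in EV and at 17.3 and 14.0 CPM in sgZNF507, and AP1M2, an epithelial medium subunit of AP-1, had a log2 fold change of 0.25 (SE 0.33) at under 1 CPM. AP5Z1, chosen by this contrast, lay outside the range of the 24 at 0.52.

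Levels were compared between genes only per kilobase. The lengths came from later gene models than those in which the reads were counted. Per kilobase of merged exons, the order of the members over the 6 libraries was ZFYVE26 with a median of 6.56 CPM per kb (range 5.83 to 7.33), AP5S1 with 5.06 (4.53 to 5.95), AP5Z1 with 4.44 (3.93 to 6.18), AP5B1 with 3.38 (2.95 to 4.11), SPG11 with 3.23 (3.04 to 3.45) and AP5M1 with 2.28 (2.19 to 2.46). Ranges of neighbours in this order, pooled over the 6 libraries, overlapped except between SPG11 and AP5M1. Within each library, however, ZFYVE26 was above AP5S1 and AP5Z1 above AP5B1, while AP5B1 and SPG11 changed places between libraries. AP5S1 was above AP5Z1 in the 4 EV and sgZNF146 libraries (4.53 to 5.95 against 3.93 to 4.53 CPM per kb), and AP5Z1 was above AP5S1 in both sgZNF507 libraries (5.67 and 6.18 against 4.69 and 5.43). AP5B1 was divided by all its 6980 exon bases, of which 2217 are shared with the pseudogene AP001266.1. How reads there were assigned is not given, and the AP5B1 level would be understated if they were left out. The order also depended on which length was used. Per kilobase of coding sequence AP5S1 was highest at 46.3 CPM per kb, AP5M1 followed at 19.6 and SPG11 was lowest at 7.09, since AP5S1 and AP5M1 have short coding sequences (200 and 504 codons) in long transcripts.

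AP-5 was among the sparse adaptors in these cells. Per kilobase of merged exons the median over the 4 AP-5 subunits was 3.91 CPM per kb, close to the 3.48 of the 4 AP-4 subunits and below the 34.9 of the 5 AP-2 subunits, which serve endocytosis at the plasma membrane. AP-1, with 8 subunit genes, had a median of 7.29 and AP-3, with 7, one of 5.51. Per kilobase of coding sequence the medians were 17.5 for AP-5, 10.7 for AP-4, 113 for AP-2, 42.9 for AP-1 and 50.2 for AP-3, and AP-4 and AP-5 were the lowest by both lengths. The AP-5 medians include AP5B1, whose level would be understated if reads in its shared exons were left out. Among protein-coding genes AP5Z1 stood at the 46.4 to 58.3 percentile by merged exons across the 6 libraries.

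**Figure D5:**
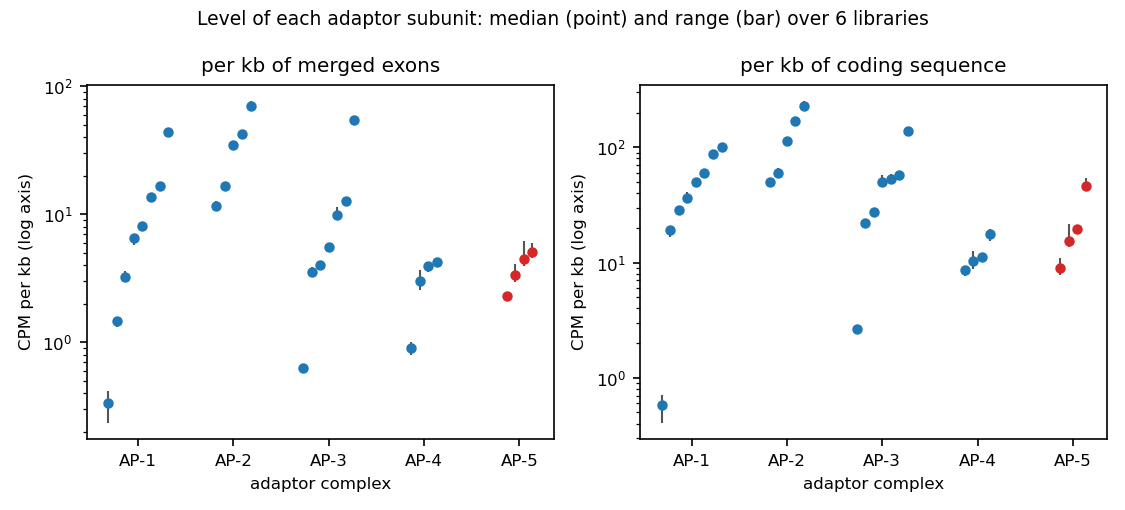
CPM per kb on a log axis for each subunit gene of AP-1 to AP-5, per kb of merged exons (left) and of coding sequence (right), with points for the median and bars for the range over 6 libraries. AP-5 subunits (red) lie between 2.28 and 5.06 on the left, overlapping the range of AP-4 and below every AP-2 subunit.

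Neighbouring genes were listed to see the chromosomal setting of each member. Among the 5 nearest tested protein-coding genes on either side, 0 of 10 were called in sgZNF507 against EV for each of the 6 members. Over all tested genes 0.182% were called, so no absence of change is read from these counts. Around AP5Z1 the 10 neighbours had log2 fold changes from -0.49 to 0.12 with a median of 0.04. AP5Z1 at 0.52 lay above all of them, but it was chosen by this contrast and the neighbours were not.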

How the data were processed

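The authors aligned the reads to hg19 with TopHat2 using Ensembl release 82 gene models after removing ribosomal reads, counted them per gene with featureCounts, and tested with DESeq2. The deposited file holds these raw counts, not normalized, for 57773 genes in 6 libraries, and 0 columns were left out. Totals ran from 22724439 to 28524025 counts.

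Here edgeR 4.0.16 (filterByExpr, TMM, quasi-likelihood test, 6 libraries in 1 fit, R 4.3.3) tested 22010 genes, with Benjamini-Hochberg adjustment and a threshold of 0.05. DESeq2 1.42.0 was an alternative. Identifiers were matched to GENCODE v44 lifted to GRCh37 (96.1%). The members and lists were chosen with earlier results of these data known. Named were the members, the targeted genes, the called genes of each list or otherwise those with the largest 2 changes, and the 5 genes most like AP5Z1. WDR81, named for its promoter, was chosen after its values were seen. So were WASHC5, C19orf12, ALDH18A1, DDHD1, SPAST and CPT1C. Replicate numbers came from the labels. The deviations of same-numbered libraries correlated at 0.14, 0.18 and 0.15 over genes in the 3 pairs of groups. The main fit holds the group means only, so its p-values, intervals and calls leave this pairing out. Pairing enters only in the alternative fit with the replicate number as a block. Intervals on folds come from the fit.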

Additional observations from a re-analysis of the deposited data

How the results depend on the processing

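In sgZNF507 against EV, AP5Z1 was the 1 member called with DESeq2 size factors, upper-quartile scaling, no filter, DESeq2 on 6 or on the 4 compared libraries, and the replicate block, and 0 members were called otherwise. In sgZNF507 against sgZNF146, 1 member (AP5Z1) was called with no filter and with DESeq2 on 6 or 4 libraries, and 2 (AP5Z1 and ZFYVE26) with the replicate block. AP5Z1 was chosen from the study's DESeq2 list for these same libraries. Its calls in both comparisons are therefore a description and support nothing. In sgZNF146 against EV 0 members were called in any setting. Leaving out each library in turn gave 0 members called in all 3 comparisons. The block, which takes the replicate number as a pairing, changed no other member's or list gene's call.

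The AP5Z1 log2 fold change stayed between 0.45 and 0.59 against EV and between 0.39 and 0.59 against sgZNF146 over 14 alternatives, and ZFYVE26 between 0.15 and 0.28 against sgZNF146, with adjusted p from 0.0409 to 1.00. Against EV, AP5B1 ran from 0.06 to 0.39 and ZFYVE26 from 0.07 to 0.22, the ends coming from leaving out single libraries. The counts over all genes moved more: the 40 calls in sgZNF507 against EV became 121 with the replicate block, 101 with no filter, 12 without EV replicate 1, 22 without EV replicate 2 and 25 without sgZNF507 replicate 1. The 0 calls in sgZNF146 against EV became 33 with the block, 19 with no filter and 0 to 3 in the other alternatives. The 38 in sgZNF507 against sgZNF146 became 196 with the block, 112 with no filter, 13 without sgZNF146 replicate 1 and 23 without its replicate 2. The share of called genes holding the palindrome lay between 33.3% (edgeR on the 4 compared libraries) and 50.0% (upper quartile) over the same alternatives, and was 37.3% (22 of 59) with the block. That of CACGTG lay between 54.2% (the block) and 84.0% (at least 10 counts in every library). This share and IGF2R were put through the alternatives after seeing the data. IGF2R lost its call against EV in edgeR on the 4 compared libraries and against sgZNF146 also with upper-quartile scaling (adjusted p = 0.0575). The cause was not tested.

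Levels per kilobase of AP5Z1, AP5B1, AP5M1, AP5S1, SPG11 and ZFYVE26 were 15.4, 8.96, 19.6, 46.3, 7.09 and 13.6 by coding length. By canonical transcript, a length chosen after seeing the data, they were 6.74, 3.38, 2.54, 5.17, 6.68 and 10.8. The limit on AP5B1 given above holds by each length. At these depths counting error was 4.19% or less for each member, and each group had 2 libraries.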
